A study of Mus musculus with 15 samples.

Results

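Medulloblastoma cells from the cerebellum of Ptch1 heterozygous mice (group MB) were compared with cells purified from the cerebellum of WT mice at postnatal day 14 (group P14) by RNA-seq of polyA RNA. The groups were taken from the sample titles and hold 3 libraries each, which is 6 of the 15 libraries of the series. The other 9 libraries are granule neuron precursors of E15.5, P1 and P7, with 3 libraries per age. They entered the model that estimated the spread between replicates, and the P7 libraries, from WT mice, serve as a reference level in a few places. GEO's labels give no age for the tumours, do not say which Ptch1 allele was used or whether tumours were pooled, and do not say that the libraries of a group came from separate animals. The p-values below therefore measure the spread between these libraries, which may be technical. The labels call the P14 cells granule neuron precursors, although they also carried high levels of genes of mature granule neurons, as described below. They describe Percoll fractionation as the purification of both precursors and tumour cells. Autosomal genes were counted, 14446 of which passed the filter on low counts.

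Granule neuron precursors divide in the outermost layer of the young cerebellum while Purkinje cells supply them with the ligand Sonic hedgehog. Ptch1, the receptor, holds the transducer Smo in check until the ligand binds it; active Smo lets Gli transcription factors switch on targets such as Gli1, Mycn and Ccnd1. Loss of Ptch1 function leaves this pathway on, and Ptch1 heterozygous mice are used as a model of Sonic hedgehog medulloblastoma, a tumour that arises from these precursors. In normal development the precursors leave the cell cycle, migrate inwards and mature into glutamatergic granule neurons with GABA and glutamate receptors.

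Levels are given as CPM, counts scaled to the effective size of each library, in the order of replicates 1, 2 and 3, and differences as log2 fold changes of MB minus P14 with their standard error (SE). A gene was called when the Benjamini-Hochberg adjusted p of edgeR's quasi-likelihood test was under 0.05. The libraries held 25594530 to 42864857 counts in genes in MB and 28778026 to 31115364 in P14. Of the 14446 autosomal genes, 3349 (23.2%) were called higher in MB and 3943 (27.3%) lower, 50.5% in either direction. Changes of at least 2-fold among the calls went up in 1652 genes (11.4%) and down in 3314 (22.9%). The median log2 fold change of all autosomal genes tested was 0.01. The tumour libraries differed among themselves more than the P14 libraries did, with a median SD of log2 CPM of 0.37 against 0.14. MB replicate 1 stood apart from the other tumours: the root mean square difference in log2 CPM was 0.98 and 1.02 from replicates 2 and 3, which differed by 0.48 from each other, while pairs of P14 libraries differed by 0.30 to 0.36. The share of reads with several alignments, which were not counted in genes, was 44.6% in that library and 22.9% to 32.0% in the other 5. Where its omission changed a call, or moved a fold change by over 1.5 times, the value without it is given, except for genes with 1 to 3 tumour reads, which have a ratio and its counting interval instead.

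Across the 15 gene lists, cell cycle and hedgehog genes were the lists with the highest medians, and channels, receptors and the insulin-like growth factor list were those with the lowest. All 34 tested genes of DNA replication and 38 of 39 genes of mitosis were called higher in MB, and the remaining mitosis gene was not called. By contrast, 25 of 37 neurotransmitter receptor genes, 36 of 48 synapse genes and 29 of 45 channel genes were called lower. Of all autosomal genes tested, 23.2% were called higher and 27.3% lower.

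**Figure D1:**
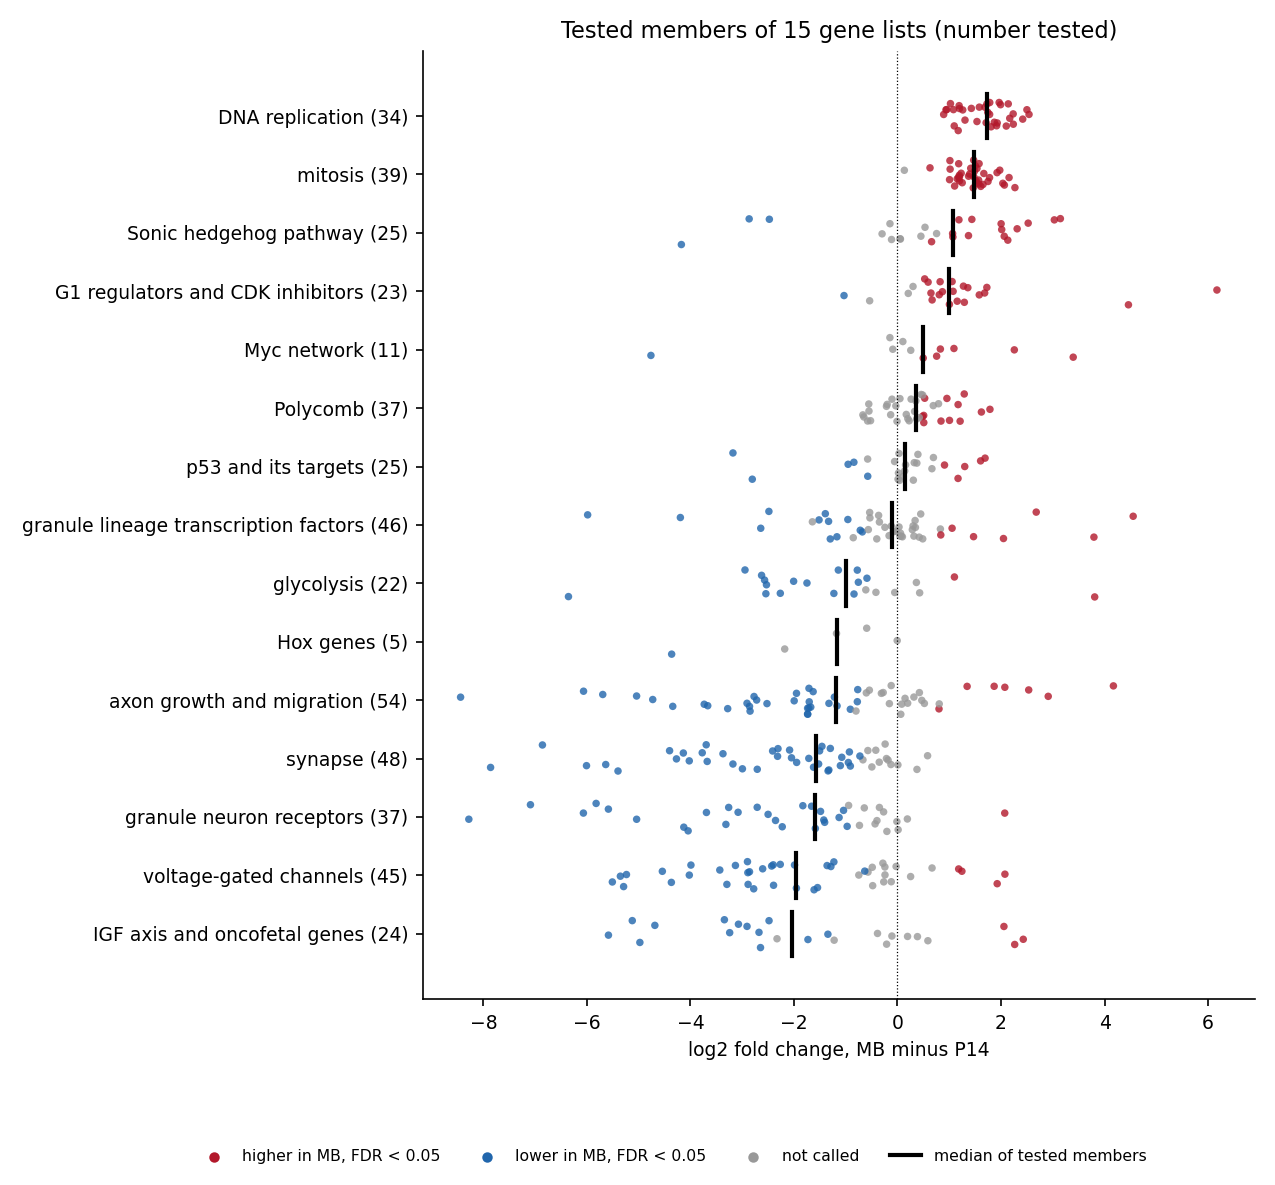
Log2 fold change of MB minus P14 (horizontal axis) for each tested member (points) of 15 gene lists, ordered by median (bar), with red for genes called higher, blue for genes called lower and grey for genes not called. The replication and mitosis lists lie to the right of 0 throughout, while synapse, receptor and channel genes spread to the left as far as -8.28.

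The labelled genotype could not be checked through Ptch1 itself, since counts over the whole gene do not tell its alleles apart. Ptch1 (ENSMUSG00000021466, mm9 chr13:63612841-63666828) stood at 202, 341 and 349 CPM in MB and at 244, 175 and 198 CPM in P14. The groups overlapped, MB replicate 1 lying below the highest P14 library, and the difference of 0.53 (SE 0.28, adjusted p = 0.132) was not called. Without MB replicate 1 it was 0.75 (adjusted p = 0.0381).

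Hedgehog pathway genes were more often called higher than lower in the tumours. Of 25 tested members of the pathway list, 14 were called higher, 3 lower and 8 were not called, with a median log2 fold change of 1.07. Over all autosomal genes tested, 23.2% were called higher and 27.3% lower. Gli1 (ENSMUSG00000025407, mm9 chr10:126766945-126778645), the Gli factor that is itself a target of the pathway, reached 208, 781 and 651 CPM in MB against 61.9, 63.2 and 75.6 in P14. The groups did not overlap and the log2 fold change was 3.03 (SE 0.40, adjusted p = 1.91e-05), although MB replicate 1 lay well below the other tumours. Sfrp1, a secreted Wnt inhibitor, was even across tumours at 1771, 1526 and 1697 CPM against 355, 304 and 347 (2.31, SE 0.21, adjusted p = 6.34e-07). The plot of hedgehog, precursor and cell cycle genes shows both patterns: for Gli1, Ccnd1 and Myc the tumour libraries are spread, and for Sfrp1, Atoh1, Ezh2 and Mycn they lie close together.

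Other members of the signalling chain moved in both directions. Smo, the transducer, was higher by 1.07 (SE 0.21), and Boc, a co-receptor for the ligand, by 2.13 (SE 0.20). Hhip, a membrane protein that binds and sequesters the ligand, was higher by 2.01 (SE 0.35), and the activator Gli2 by 2.00 (SE 0.33). The called falls were Cdon, another co-receptor, at 1.19, 0.562 and 1.08 CPM against 19.9, 15.8 and 14.7 (-4.17, SE 0.36, adjusted p = 4.45e-07), the mainly repressive factor Gli3 (-2.86, SE 0.43) and the ligand gene Shh. Gli3 was lower by 3.62 on the log2 scale, instead of 2.86, when MB replicate 1 was left out. Shh rested on 5 reads in all tumours and 29 in all P14 libraries. Its fall of 2.47 on the log2 scale (adjusted p = 0.0187) was no longer called without MB replicate 1 (-2.34), MB replicate 3 (-2.02) or P14 replicate 3 (-2.18), and it was -3.70 without MB replicate 2. Markers of Purkinje cells, which make the ligand, were also lower in MB, as given with the cell type markers, and their part in this fall was not tested.

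Mycn and the D cyclins link the pathway to the cell cycle, and Mycn, Ccnd1 and Ccnd2 were higher in MB. Mycn measured 286, 412 and 412 CPM against 82.1, 80.1 and 104 (2.06, SE 0.23, adjusted p = 4.79e-06). Ccnd1 measured 448, 1223 and 1154 CPM against 108, 99.0 and 112, and Ccnd2 2288, 1702 and 2120 CPM against 856, 702 and 802. The log2 fold changes were 3.15 (SE 0.37) and 1.37 (SE 0.25), and no tumour library overlapped with P14 for either gene. Per kilobase of transcript, the mean level of Ccnd1 in P14 was 28.4 CPM against 138 CPM for Ccnd2, and in MB it was 252 against 357 CPM, so the gap between both cyclins was narrower in the tumours. Ccnd3, at 13.8, 45.1 and 38.2 CPM against 43.6, 52.0 and 45.5, was not called (-0.54, SE 0.33, adjusted p = 0.192).

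**Figure D2:**
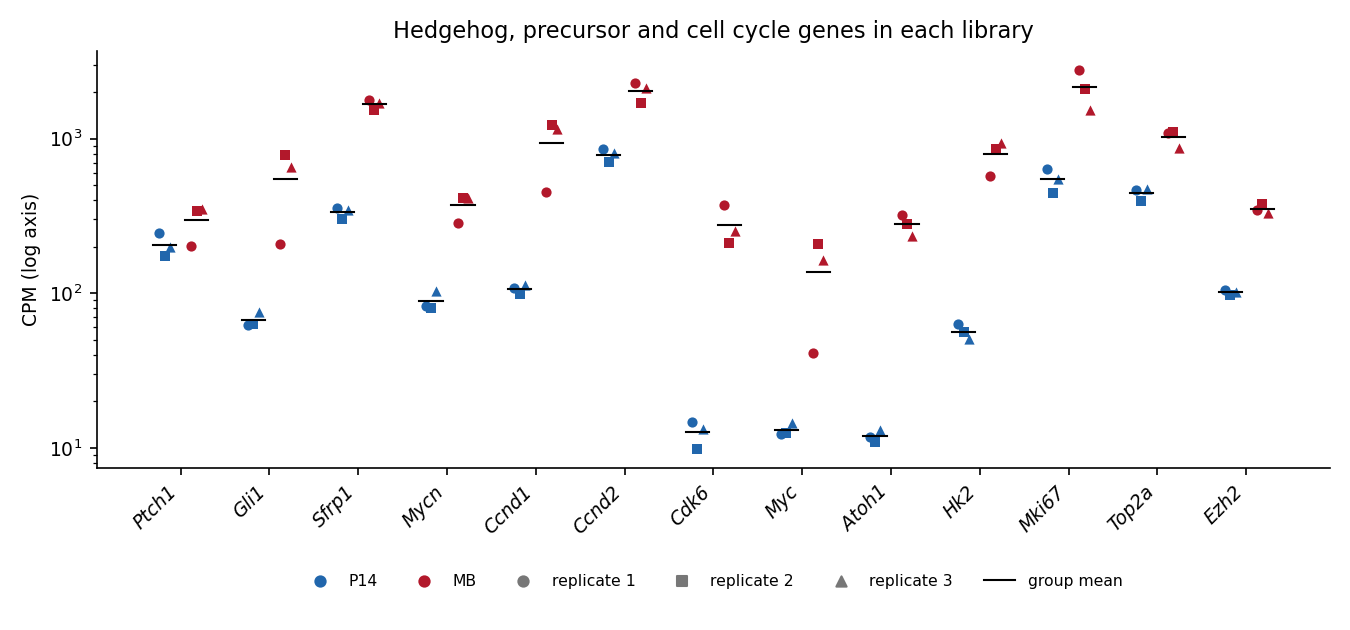
CPM on a log axis of 13 hedgehog, precursor and cell cycle genes in the 3 P14 (blue) and 3 MB (red) libraries, with symbols for replicates and bars for group means. Ptch1 overlaps between the groups, while Cdk6, Atoh1 and Hk2 show the widest gaps between the nearest libraries of the groups.

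Among regulators of the start of the cell cycle, 19 of 23 tested genes were called higher and 1 lower, with a median of 1.00. Shares over all autosomal genes tested were 23.2% higher and 27.3% lower. Cdk6, a kinase partner of the D cyclins (ENSMUSG00000040274, mm9 chr5:3343893-3523218), was at 370, 211 and 253 CPM in MB and at 14.7, 9.86 and 13.3 in P14. Its log2 fold change was 4.46 (SE 0.42, adjusted p = 8.82e-07), compared with 1.07 (SE 0.26) for Cdk4, which binds the same cyclins. Rbl1, which codes for the pocket protein p107, was higher by 1.73 (SE 0.24).

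Inhibitors of cyclin-dependent kinases moved in both directions. Cdkn2a, which encodes the p16 and p19Arf proteins (mm9 chr4:88920377-88928096), had 18.4, 20.3 and 8.49 CPM in MB and 0.135, 0.271 and 0.234 in P14, a log2 fold change of 6.17 (SE 0.60, adjusted p = 1.25e-06). Counts over the gene do not separate its transcripts. Cdkn2c, the inhibitor p18, was at 111, 180 and 154 CPM against 53.3, 62.6 and 65.7 (1.29, SE 0.20). Cdkn1b, the inhibitor p27 that accumulates as precursors leave the cycle, was higher in MB too, at 480, 391 and 412 CPM against 275, 267 and 265 (0.67, SE 0.18, adjusted p = 0.00509). Cdkn1c, the inhibitor p57, was lower at 14.4, 12.4 and 13.7 CPM against 25.5, 30.4 and 27.0 (-1.03, SE 0.29, adjusted p = 0.00754).

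The replication list rose as a block: its 34 tested members had log2 fold changes between 0.89 and 2.54, with a median of 1.74, and all 34 had groups that did not overlap, compared with 61.7% of all autosomal genes tested. Mcm2 and Mcm6, subunits of the replicative helicase, and Pole, the catalytic subunit of a replicative DNA polymerase, led it. Mcm6 was at 611, 600 and 574 CPM against 104, 97.0 and 115 (2.50, SE 0.22, adjusted p = 5.20e-07), and Mcm2 at 540, 616 and 488 CPM against 98.1, 79.2 and 105 (2.54, SE 0.22). Pole was higher by 2.42 (SE 0.27).

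The mitosis list had a median of 1.48. Mki67, the proliferation marker, measured 2790, 2104 and 1536 CPM against 635, 448 and 551 (1.98, SE 0.32, adjusted p = 0.000136). Top2a, the topoisomerase that separates sister chromosomes, measured 1082, 1107 and 876 CPM against 466, 398 and 473 (1.20, SE 0.20, adjusted p = 0.00015). Both genes were thus well above background in P14 as well. The largest rises were in Mad2l1, a spindle checkpoint protein (2.27, SE 0.34), and in the cell cycle transcription factors Foxm1 (2.16, SE 0.26) and Mybl2 (2.07, SE 0.27). Pttg1, the securin, was the exception at 43.5, 10.3 and 10.05 CPM against 17.1, 25.9 and 14.98 (0.13, SE 0.54, adjusted p = 0.858). Without MB replicate 1 its value turned to -0.93 and was not called either (adjusted p = 0.102).

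Promoters of the replication, mitosis, G1, hedgehog, synapse and receptor lists were searched for the E2F and CHR motifs of cell cycle genes, a Gli site and an E-box. RefSeq windows of GRCm38.p6 were used, reaching from 250 bases before to 50 bases after the transcription start. The shares describe the members of each list and were not tested against their fold changes. Windows were found for 11111 of the tested autosomal genes, and both strands were searched. The E2F motif was taken as TTTGGCGC, TTTCCCGC or TTTCGCGC. It was present in 14 of 27 replication genes (51.9%), 7 of 18 regulators of the G1 phase (38.9%) and 3 of 31 mitosis genes (9.68%), compared with 3.62% of all 11111 genes. It was also in 2 of 16 hedgehog genes (12.5%), and in 0 of 33 synapse and 0 of 23 receptor genes. The CHR element of late cell cycle genes, TTTGAA, was present in 21 of 31 mitosis genes (67.7%), compared with 14.2% of all. In the other lists searched it was in 6 of 16 hedgehog genes (37.5%), 5 of 18 regulators of the G1 phase (27.8%), 7 of 33 synapse genes (21.2%), 5 of 27 replication genes (18.5%) and 3 of 23 receptor genes (13.04%). GACCACCCA, a Gli site, was found in 0 of 16 hedgehog list members with a window and in 0.225% of all genes; of the other lists searched, 1 mitosis gene held it. CAGCTG, an E-box bound by Atoh1-type factors, was found in 12 of 33 synapse genes (36.4%) but in 0 of 23 receptor genes, and in 18.9% of all. It was in 22.2% of the regulators of the G1 phase, 19.4% of mitosis genes, 12.5% of hedgehog genes and 11.1% of replication genes. None of these 4 motifs is contained in another. A match describes the letters in the window and is not evidence of binding, and a window without one says only that these letters are not in it.

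The windows of 2 helicase subunits and 2 mitosis genes show where these letters lie, with the E2F motif in capitals in Mcm6 (chr1:128359656-128359955, minus strand) and Mcm3 (chr1:20820263-20820562, minus strand) and the CHR letters in capitals in Mki67 (chr7:135716330-135716629, minus strand) and Top2a (chr11:99024140-99024439, minus strand).
Mcm6: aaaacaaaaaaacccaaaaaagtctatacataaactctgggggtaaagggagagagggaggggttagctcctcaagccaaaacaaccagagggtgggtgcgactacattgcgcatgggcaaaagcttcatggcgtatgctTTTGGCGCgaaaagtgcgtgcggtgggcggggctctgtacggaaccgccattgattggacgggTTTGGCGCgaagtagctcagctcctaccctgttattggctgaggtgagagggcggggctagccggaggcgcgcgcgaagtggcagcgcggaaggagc
Mcm3: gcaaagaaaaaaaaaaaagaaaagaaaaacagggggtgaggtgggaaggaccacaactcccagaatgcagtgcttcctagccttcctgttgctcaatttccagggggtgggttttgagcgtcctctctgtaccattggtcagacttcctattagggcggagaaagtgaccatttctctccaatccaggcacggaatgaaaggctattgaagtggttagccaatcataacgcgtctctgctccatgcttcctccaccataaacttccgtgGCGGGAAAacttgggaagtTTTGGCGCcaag
Mki67: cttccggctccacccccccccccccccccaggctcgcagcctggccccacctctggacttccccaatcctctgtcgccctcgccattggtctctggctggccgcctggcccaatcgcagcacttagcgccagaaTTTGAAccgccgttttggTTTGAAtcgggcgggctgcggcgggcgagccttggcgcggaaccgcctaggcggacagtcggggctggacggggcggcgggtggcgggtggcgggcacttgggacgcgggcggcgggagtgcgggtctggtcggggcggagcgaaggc
Top2a: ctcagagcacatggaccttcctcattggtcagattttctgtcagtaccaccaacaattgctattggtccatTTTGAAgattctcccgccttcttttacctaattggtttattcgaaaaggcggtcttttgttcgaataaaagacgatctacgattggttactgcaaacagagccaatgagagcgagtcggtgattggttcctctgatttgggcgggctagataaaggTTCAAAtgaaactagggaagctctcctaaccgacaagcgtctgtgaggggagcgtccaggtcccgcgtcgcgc
Each sequence is RefSeq's, in GRCm38.p6, read 5′ to 3′ on the gene's strand. GCGGGAAA in Mcm3 and TTCAAA in Top2a are the motifs read on the opposite strand. In Mcm6, GCGCGAAA, the motif TTTCGCGC read on the opposite strand, overlaps the first TTTGGCGC and is only partly in capitals. Mcm3 was higher in MB by 2.23 (SE 0.23).

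Transcription factors of the granule lineage did not move as a group: of 46 tested, 7 were called higher, 12 lower and 27 were not called, and the median of -0.10 turned to 0.02 when MB replicate 1 and the other libraries with lost reads in a few genes were left out. Calls in either direction made up 41.3% of the list, compared with 50.5% of all autosomal genes tested. Atoh1, the factor that specifies precursors and keeps them dividing (ENSMUSG00000073043, mm9 chr6:64679140-64681227), was at 322, 282 and 236 CPM in MB and at 11.7, 10.9 and 13.1 in P14 (4.55, SE 0.32, adjusted p = 7.49e-08). Sox18, a factor known from blood vessels, was at 59.1, 323 and 347 CPM against 17.1, 18.5 and 16.98 (3.79, SE 0.56). The endothelial markers were lower in MB, and the cell source of the Sox18 reads was not tested. Neurod6 was at 142, 156 and 123.3 CPM against 20.8, 22.5 and 22.4 (2.68, SE 0.25).

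Other factors of the list were lower in MB or were not called. Neurod2 fell from 336, 344 and 366 CPM in P14 to 2.50, 2.44 and 11.7 in MB (-5.98, SE 0.56, adjusted p = 8.88e-07; -7.14 without MB replicate 3). Its relative Neurod1 remained abundant in the tumours at 573, 295 and 330 CPM against 1189, 1126 and 1107 (-1.51, SE 0.30, adjusted p = 0.00058). Pax6, expressed in precursors and granule neurons alike, was at 294, 118 and 160 CPM against 423, 432 and 431 (-1.17, SE 0.29, adjusted p = 0.00354). Id4, an inhibitor of basic helix-loop-helix factors, was at 3.89, 6.18 and 4.16 CPM against 88.2, 93.7 and 80.1 (-4.19, SE 0.34). Zic1, a factor found through the whole granule lineage, was not called, with 1157, 1676 and 1705 CPM against 1992, 1825 and 1962 (-0.35, SE 0.21, adjusted p = 0.174).

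Receptor genes were mostly lower in MB. Of 37 tested, 25 were called lower and 1 higher, and the median was -1.59. Gabra6, the GABA-A receptor subunit that marks mature granule neurons (ENSMUSG00000020428, mm9 chr11:42119940-42134553), was at 1.11, 0.220 and 0.440 CPM in MB against 161, 202 and 164 in P14 (-8.28, SE 1.38, adjusted p = 0.000249; -9.12 without MB replicate 1). Gabrd, its partner in extrasynaptic receptors, was at 0.516, 0.0977 and 0.480 CPM against 41.5, 49.9 and 49.8 (-7.09, SE 1.11). Grm4, a presynaptic glutamate receptor of parallel fibres, was at 2.06, 2.17 and 5.44 CPM against 244, 186 and 215 (-6.07, SE 0.93; -6.66 without MB replicate 3).

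The NMDA receptor subunit Grin2c separated MB replicate 1 from the other tumours. Grin2c, the subunit gained as granule neurons mature, was at 45.5 CPM in MB replicate 1 but at 0.757 and 0.921 in replicates 2 and 3, against 96.4, 98.7 and 112 in P14. Its fold change was -2.71 (SE 1.01, adjusted p = 0.0356) with every library and -6.94 (adjusted p = 1.78e-07) without MB replicate 1. The call was lost when MB replicate 2 (-2.14), MB replicate 3 (-2.15), or P14 replicate 1 (-2.75), 2 (-2.74) or 3 (-2.64) was left out. Grin2b, the subunit of immature neurons, was at 25.3, 34.0 and 64.7 CPM against 93.7, 50.9 and 61.6, overlapped between groups and was not called (-0.73, SE 0.61, adjusted p = 0.335). The single called rise among receptors was Chrna3, a nicotinic acetylcholine receptor subunit, at 140, 32.8 and 38.7 CPM against 8.66, 18.9 and 22.7 (2.07, SE 0.51; 1.09 without MB replicate 1).

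Synapse genes had a median of -1.57, with 36 of 48 called lower and the other 12 not called. Slc17a7, the vesicular glutamate transporter of mature granule neurons (ENSMUSG00000070570, mm9 chr7:52419291-52431508), was at 1.55, 0.977 and 0.640 CPM in MB against 239, 250 and 245 (-7.86, SE 0.68, adjusted p = 3.95e-07). The related transporter of immature neurons, Slc17a6, was not called at 157, 34.6 and 127 CPM against 125, 121 and 130 (-0.24, SE 0.41, adjusted p = 0.653). Vsnl1, a neuronal calcium sensor, fell from 87.7, 97.2 and 86.1 CPM to 0.397, 1.10 and 0.761 (-6.86, SE 0.78). Cbln3, a cerebellin of granule neurons, measured 11.5, 3.25 and 3.48 CPM against 261, 260 and 243 (-5.40, SE 0.93; -6.24 without MB replicate 1), and Cbln2 fell by 6.01 (SE 0.38) from 2.76 to 3.38 CPM in P14. Rbfox3, which codes for the neuronal antigen NeuN, fell much less: 173, 278 and 290 CPM against 551, 484 and 526 (-1.08, SE 0.36, adjusted p = 0.0214). It was not called without MB replicate 1 (-0.87) or P14 replicate 1 (-1.03).

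**Figure D3:**
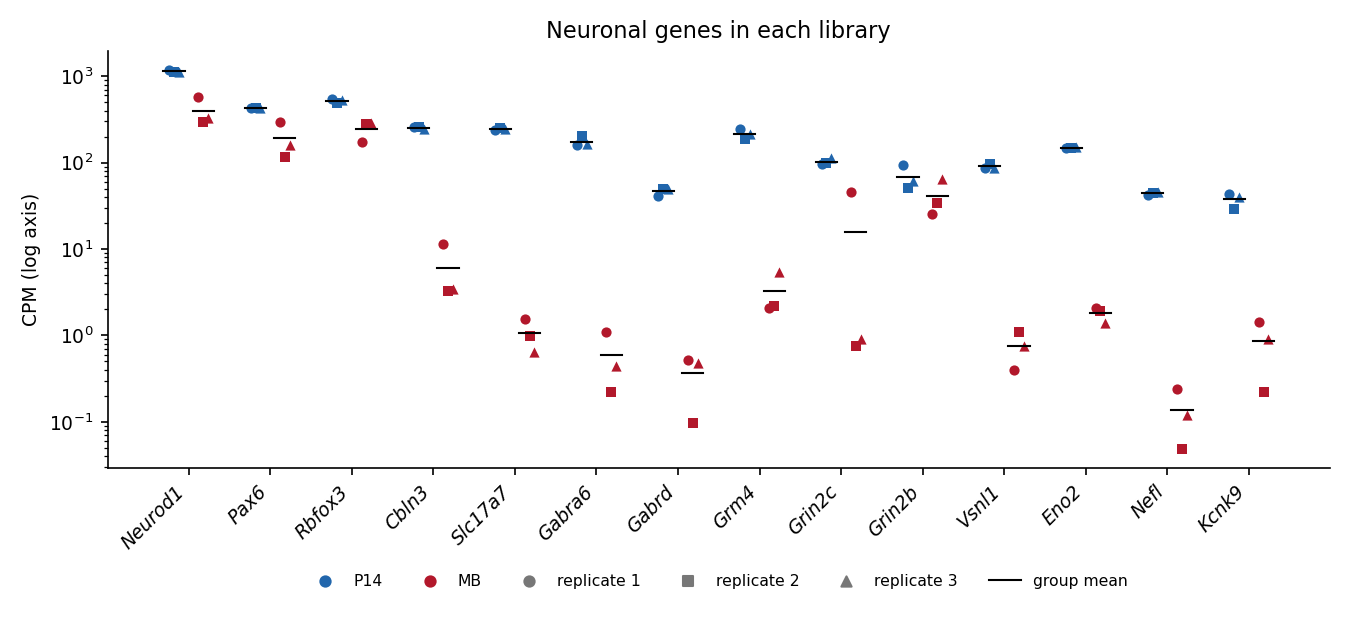
CPM on a log axis of 14 neuronal genes in the 3 P14 (blue) and 3 MB (red) libraries, with symbols for replicates and bars for group means. Neurod1, Pax6, Rbfox3 and Grin2b remain above 25 CPM in every tumour, whereas Gabra6, Gabrd and Nefl are near or below 1 CPM and Grin2c is high in 1 tumour.

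Channel genes followed the receptors, with 29 of 45 called lower, 4 higher and a median of -1.95. Kcnk9 and Kcnk3, leak potassium channels that set the resting potential of granule neurons, were at 1.43, 0.220 and 0.921 CPM against 43.1, 28.9 and 40.5 (-5.51, SE 0.62; -6.15 without MB replicate 1) and at 0.516, 1.05 and 0.921 CPM against 35.4, 32.2 and 35.8 (-5.35, SE 0.72). Scn4b, an auxiliary sodium channel subunit, fell by 5.29 (SE 0.76) from 1.27 to 3.44 CPM in P14; this value was -4.54 without MB replicate 2 and -6.08 without MB replicate 3. The rises included Scn3a, a sodium channel of immature neurons, at 47.6, 49.3 and 54.9 CPM against 13.1, 10.04 and 12.8 (2.08, SE 0.20, adjusted p = 1.25e-06). Kcnh7, a potassium channel of the erg type, rose by 1.93 (SE 0.31) and Cacna2d1, an auxiliary calcium channel subunit, by 1.24 (SE 0.28).

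Axon growth and migration genes were mixed, with 31 of 54 called lower, 7 higher and a median of -1.19. Calls over all autosomal genes tested were 27.3% lower and 23.2% higher. Nefl, the light neurofilament chain, fell from 42.7, 44.6 and 45.5 CPM to 0.238, 0.0489 and 0.120 (-8.44, SE 0.37, adjusted p = 2.21e-09; -9.10 without MB replicate 1). Ntf3, a neurotrophin made by granule cells, fell by 6.06 (SE 0.32), while Ntrk3, the receptor for it, rose from 51.9, 44.1 and 47.2 to 248, 294 and 287 CPM (2.53, SE 0.21, adjusted p = 2.79e-07). Unc5b, a netrin receptor, fell by 5.69 (SE 0.49) from 221, 186 and 199 CPM. Cxcr4, the chemokine receptor that holds precursors in the outer layer, rose from 38.4, 37.1 and 40.5 to 203, 332 and 339 CPM (2.91, SE 0.26, adjusted p = 5.54e-07). Robo3, a Slit receptor family member, was at 0.119, 2.86 and 7.77 CPM against 0.101, 0.241 and 0.234, and its rise of 4.17 (SE 1.00; 3.00 without MB replicate 3) came with overlapping groups. Tubb3, a neuronal tubulin, was not called, with 247, 844 and 835 CPM against 737, 796 and 798 (-0.28, SE 0.35, adjusted p = 0.538).

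Several of these neuronal genes had already been low at P7, so the P7 level was set beside both groups. This comparison uses the same MB libraries and is not independent of the one with P14. Gabra6 averaged 7.43 CPM at P7, and MB was also below P7 (-3.73, SE 1.21, adjusted p = 0.0291). Slc17a7 averaged 77.7 CPM at P7 and was lower in MB than at that age (-6.20, SE 0.64, adjusted p = 2.97e-06). Cbln3 averaged 11.9 CPM at P7 and did not pass the test against it (-0.98, SE 0.80, adjusted p = 0.374), and neither did Grin2c, which averaged 5.27 CPM (1.57, SE 0.99, adjusted p = 0.246). Mki67 (P7 mean 1724 CPM; 0.31, SE 0.31, adjusted p = 0.476) and Top2a (P7 mean 854 CPM; 0.26, SE 0.20, adjusted p = 0.339) also did not pass. Atoh1, Gli1 and Cdk6 were above P7 as well, by 3.19 (SE 0.30), 2.07 (SE 0.38) and 3.33 (SE 0.40). Measured over all genes, MB lay closest to P7, at a root mean square distance of 1.32 in log2 CPM, then to P1 at 1.44, P14 at 1.61 and E15.5 at 1.72.

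Polycomb genes code for the complexes that place and read repressive marks on histones. Of 37 tested, 12 were called higher and the other 25 were not called, with a median of 0.35. That is 32.4% called in either direction, compared with 50.5% of all autosomal genes tested, of which 23.2% were called higher. Ezh2, the methyltransferase of Polycomb repressive complex 2 (ENSMUSG00000029687, mm9 chr6:47480273-47545029), was at 343, 377 and 330 CPM in MB against 105, 97.9 and 102 (1.79, SE 0.19, adjusted p = 2.77e-06). Its paralogue Ezh1, typical of non-dividing cells, was not called at 45.7, 32.3 and 31.2 CPM against 27.7, 23.9 and 27.8 (0.46, SE 0.20, adjusted p = 0.0734). Per kilobase, Ezh2 exceeded Ezh1 in both groups, at 132 against 10.01 CPM in MB and at 38.2 against 7.28 CPM in P14.

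The other core subunits of the complex moved by less than Ezh2. Suz12 was at 273, 177 and 181 CPM against 125, 107 and 120 (0.84, SE 0.20, adjusted p = 0.00267). Eed was at 56.2, 47.5 and 44.4 CPM against 33.4, 33.2 and 36.3 (0.53, SE 0.21, adjusted p = 0.045). The Eed call was lost without MB replicate 1 (0.42) or 2 (0.55), or without P14 replicate 1 (0.51), 2 (0.50) or 3 (0.57). In Polycomb repressive complex 1, Cbx2, a reader of the mark, rose from 43.3, 37.8 and 45.7 to 109, 139 and 142 CPM (1.62, SE 0.19), and the variant subunit Pcgf5 rose by 1.29 (SE 0.28). Rnf2, the ubiquitin ligase Ring1b, was at 210, 122 and 101 CPM against 87.7, 89.5 and 91.2 and was not called (0.69, SE 0.30, adjusted p = 0.0673); without MB replicate 3 it was (0.89).

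Hox genes, classical Polycomb targets, were barely expressed in either group. Only 5 of 38 in the table passed the filter on low counts, 23 had no read in the tumours and 23 had no read at P14, and the summed level of the list was 0.600 to 1.27 CPM in MB and 0.944 to 1.42 CPM in P14. Hoxb2 was called lower with 0 reads in MB against 8 in P14, at least 2.62-fold lower taking a floor of 3 reads over the group. Its call did not hold when any MB library, or P14 replicate 1 or 2, was left out, with fitted values of -4.37, -4.32 and -4.37 and of -4.23 and -3.63.

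The insulin-like growth factor list, which includes oncofetal genes, was mostly lower in MB: 13 of 24 tested genes were called lower, 3 higher, and the median was -2.03. For all autosomal genes tested the shares were 27.3% lower and 23.2% higher. Igf2, the imprinted growth factor, was at 11.6, 12.2 and 7.93 CPM against 426, 383 and 300 (-5.12, SE 0.33, adjusted p = 3.51e-08). Igf2 is also made by meninges, vessels and choroid plexus, whose markers were lower in MB; their part in this difference was not tested. Lin28b, an RNA-binding protein of early development, had 1 read in all tumours against 68 in P14, a ratio of 66.8 (exact 95% interval 11.6 to 2677, covering counting error only), and Dlk1, an imprinted transmembrane protein, was lower by 4.98 (SE 0.68; -7.11 without MB replicate 2). Irs1, the adaptor of insulin and insulin-like growth factor receptors, was higher at 281, 300 and 322 CPM against 65.6, 48.1 and 53.9 (2.43, SE 0.31, adjusted p = 1.36e-05). Hmga1, a chromatin protein of dividing cells, was at 37.8, 39.9 and 38.5 CPM against 9.61, 6.39 and 8.19 (2.26, SE 0.21). From the deposited counts per transcript, the rise of Hmga1 was smaller, at 1.18, and was still called. Peg10, an imprinted gene derived from a retrotransposon, rose by 2.06 (SE 0.48; 1.20 without MB replicate 1).

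The oncofetal genes Hmga2 and Igf2bp1 stayed near the detection limit. Hmga2 was at 0.198, 0.318 and 0.320 CPM against 0.202, 0.271 and 0.167 and was not called (0.39, SE 0.47, adjusted p = 0.523). Igf2bp1, an oncofetal RNA-binding protein, was at 0, 0 and 0.320 CPM against 0.573, 0.452 and 0.401 and missed the threshold (-2.33, SE 0.96, adjusted p = 0.0551); the value was -1.55 without MB replicate 2, and -6.79 and called without MB replicate 3. It was also called lower by DESeq2 (-2.28, adjusted p = 0.0272), with scaling by total counts (-2.43, adjusted p = 0.0495) and with no filter on low counts (-2.33, adjusted p = 0.0477).

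In the Myc network 6 of 11 tested genes were called higher and 1 lower. That is 63.6% in either direction, compared with 50.5% of all autosomal genes tested. Myc, low in P14 at 12.3, 12.5 and 14.5 CPM, reached 41.3, 207 and 165 CPM in MB (3.39, SE 0.41, adjusted p = 9.38e-06). Mycl was more even, at 480, 343 and 348 CPM against 81.1, 77.0 and 87.0 (2.26, SE 0.19, adjusted p = 3.95e-07), and Mxd3, a Max-binding factor of dividing precursors, rose by 1.09 (SE 0.31). Mlxipl, a carbohydrate-responsive member of the network, fell by 4.76 (SE 0.44) from 1.92 to 3.01 CPM.

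For p53 and its targets no common direction was seen: 5 of 25 were called higher, 5 lower and 15 were not called, with a median of 0.14. The list was thus called in 40% of its members, compared with 50.5% of all autosomal genes tested. Pmaip1, the death-promoting Noxa, rose by 1.69 (SE 0.40; 0.98 without MB replicate 1), Sesn2, a stress-induced regulator, by 1.61 (SE 0.38) and Tigar by 1.30 (SE 0.24). Trp53 itself was at 74.7, 207 and 196 CPM against 78.5, 62.1 and 71.9 (1.17, SE 0.29, adjusted p = 0.0033). Perp, an adhesion protein, fell by 3.18 (SE 0.52) and the kinase Plk2 by 2.80 (SE 0.25). Mdm2, the feedback inhibitor of p53, was at 112, 102 and 115 CPM against 84.3, 87.5 and 90.6 and was not called (0.32, SE 0.13, adjusted p = 0.0546).

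Glycolysis genes had a median of -0.99, with 15 of 22 called lower and 2 higher. That compares with 27.3% lower and 23.2% higher among all autosomal genes tested. Both hexokinases, which catalyse the first step of glycolysis, moved in opposite directions. Hk2, the hexokinase of dividing and tumour cells, was at 571, 860 and 937 CPM in MB against 63.0, 55.7 and 50.2 (3.81, SE 0.41, adjusted p = 3.44e-06). Hk1, the hexokinase of neurons, was at 18.05, 33.7 and 32.3 CPM against 186, 150 and 162 (-2.57, SE 0.28, adjusted p = 3.36e-06). Eno2, the neuronal enolase, fell from 149, 147 and 151 to 2.10, 1.93 and 1.40 CPM (-6.36, SE 0.64). The lactate transporter Slc16a1 and the glucose transporter Slc2a1, both abundant in vessels, fell by 2.95 (SE 0.24) and 2.62 (SE 0.27), beside the fall of the endothelial markers, whose part was not tested. Gapdh was counted at 11.5, 7.35 and 9.21 CPM against 3.27, 4.43 and 5.35 (1.10, SE 0.32; 0.93 and not called without P14 replicate 1). It has many near-identical pseudogenes, and reads with several alignments were not counted, so its value is uncertain.

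The largest rises among genes of at least 5 CPM on average included genes best known from other organs. Prm1, the sperm protamine (ENSMUSG00000022501, mm9 chr16:10796419-10796979), had 1292, 1609 and 1044 reads in MB and 1, 0 and 1 in P14, or 51.2, 39.3 and 41.8 CPM in the tumours. The ratio was 2008 (exact 95% interval 555.4 to 16580, counting error only). Sema3e, a secreted guidance cue, was the most even of the large rises at 229, 196 and 198 CPM against 3.14, 3.04 and 2.77 (6.12, SE 0.22, adjusted p = 4.53e-10). Hrk, a death-promoting protein of the Bcl-2 family found in neurons, was at 120, 242 and 355 CPM against 3.54, 3.01 and 3.64 (6.14, SE 0.41). Cbln4, a cerebellin, was at 99.8, 41.9 and 37.5 CPM against 0.506, 0.844 and 0.635 (6.48, SE 0.47; 5.89 without MB replicate 1). Gpnmb, a membrane glycoprotein of macrophages and tumours, and Lcn2, an iron-binding secreted protein, rose by 6.52 (SE 0.51) and 6.41 (SE 0.58). The uncharacterised 9530053A07Rik was at 28.8, 203 and 158 CPM against 0.775, 0.814 and 0.836 (7.32, SE 0.67).

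Among these rises, 2 depended on MB replicate 1 for their size. Tecta, a protein of the tectorial membrane of the inner ear, was at 899, 31.1 and 43.5 CPM against 0.607, 0.362 and 0.535 (9.33, SE 1.20; 6.21 without that library). Krt12, a keratin of the cornea, was at 101, 1.10 and 4.16 CPM against 0.0674, 0.0904 and 0.234 (8.05, SE 1.46; 4.28 without it, and 8.72 without P14 replicate 3). For both genes the other tumours still lay above every P14 library.

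The largest falls were in genes of other cell types as well as granule neurons. Pax2, the factor of GABAergic interneuron precursors (ENSMUSG00000004231, mm9 chr19:44830539-44912758), had 1 read in all tumours against 709, 485 and 651 in P14, a ratio of 1813 (exact 95% interval 324.9 to 71640). Msx2, a homeobox factor, had 3 reads against 2369 (ratio 775.8, interval 265.2 to 3765), and Nipal4, a putative magnesium transporter, 1 against 1301 (ratio 1278, interval 229.0 to 50530). Mag and Mobp, myelin proteins, fell by 9.05 (SE 1.27) and 8.91 (SE 1.33; -9.55 without MB replicate 1), and Calb1, a calcium buffer of Purkinje cells, by 8.56 (SE 0.64). Adra2c, an adrenergic receptor, fell by 9.04 (SE 0.68; -13.14 without MB replicate 2) and Tmem125, a membrane protein, by 8.19 (SE 1.17; -11.84 without MB replicate 2).

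Markers of other cell types differed strongly between the groups, nearly always with the higher level in P14. In bulk RNA, fewer cells of a type and less RNA per cell cannot be told apart, for granule neurons as for the cells below, and the part of these cells in the neuronal and glial differences was not tested. Compared with 27.3% of all autosomal genes tested, all 10 endothelial and all 10 pericyte and fibroblast markers were called lower in MB. Their summed levels were 39.1 to 53.4 CPM against 902 to 954 for endothelium, and 32.3 to 40.5 against 1048 to 1253 CPM for pericytes and fibroblasts. Kdr, Tek and Flt1, receptors of endothelial growth factors, had log2 fold changes of -5.47, -5.48 and -4.87, and Rgs5, a pericyte gene, of -6.09. Choroid plexus and ependyma markers summed to 50.5, 198 and 38.5 CPM in MB and to 5822, 8564 and 5166 in P14, most of it from Ttr, the thyroid hormone carrier, with 5565, 8279 and 4970 CPM in P14. The fall of Ttr was 6.60 on the log2 scale (SE 1.78), and -8.58 without MB replicate 2. Erythroid markers summed to 0.198 to 5.44 CPM in MB against 104 to 161 CPM, where both measured haemoglobin genes, Hbb-bs and Hbb-bt, are near-identical copies of uncertain split.

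Neuronal and glial markers followed. All 11 interneuron markers, 7 of 9 Purkinje markers, 4 of 6 markers of unipolar brush cells and 7 of 12 of astroglia were called lower. The share over all autosomal genes tested was 27.3%. Among the defining genes, Slc32a1, the GABA transporter of inhibitory neurons, was at 0.159, 0.195 and 0.160 CPM against 20.2, 17.4 and 28.4, and Pcp2, a Purkinje protein, at 0.119, 0.586 and 0.680 CPM against 16.3, 15.8 and 31.5. Eomes, a factor of unipolar brush cells, was at 2.22, 1.20 and 1.12 CPM against 48.6, 42.6 and 43.8. Foxp2 went against the Purkinje list, at 123.2, 68.0 and 56.3 CPM against 10.6, 7.69 and 9.13 (3.17, SE 0.30, adjusted p = 9.38e-07). Astroglial genes split: Aqp4, the water channel, fell by 3.35 (SE 0.49) while Gfap was not called at 391, 198 and 158 CPM against 282, 310 and 248 (-0.17, SE 0.47, adjusted p = 0.784).

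Of 12 markers of the oligodendrocyte lineage, 8 were called lower, 2 higher and 2 were not called. Among all autosomal genes tested, 27.3% were called lower and 23.2% higher. The myelin genes Mbp, Mog and Cnp fell by 4.94, 7.32 and 5.36 on the log2 scale, in the direction of Mag. The rises were in Pdgfra and Olig2. Pdgfra, the growth factor receptor of oligodendrocyte precursors, rose from 118, 98.9 and 122 to 813, 274 and 384 CPM (2.12, SE 0.33, adjusted p = 9.17e-05). Olig2, a factor of the same precursors, was at 33.2, 122 and 132 CPM against 40.6, 41.5 and 43.3 (1.19, SE 0.41, adjusted p = 0.0238), with MB replicate 1 below every P14 library. Its call was lost without MB replicate 2 (0.98) or 3 (0.90) and without P14 replicate 1 (1.17), 2 (1.19) or 3 (1.22). Sox10, shared by the lineage, was lower (-1.55, SE 0.38).

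**Figure D4:**
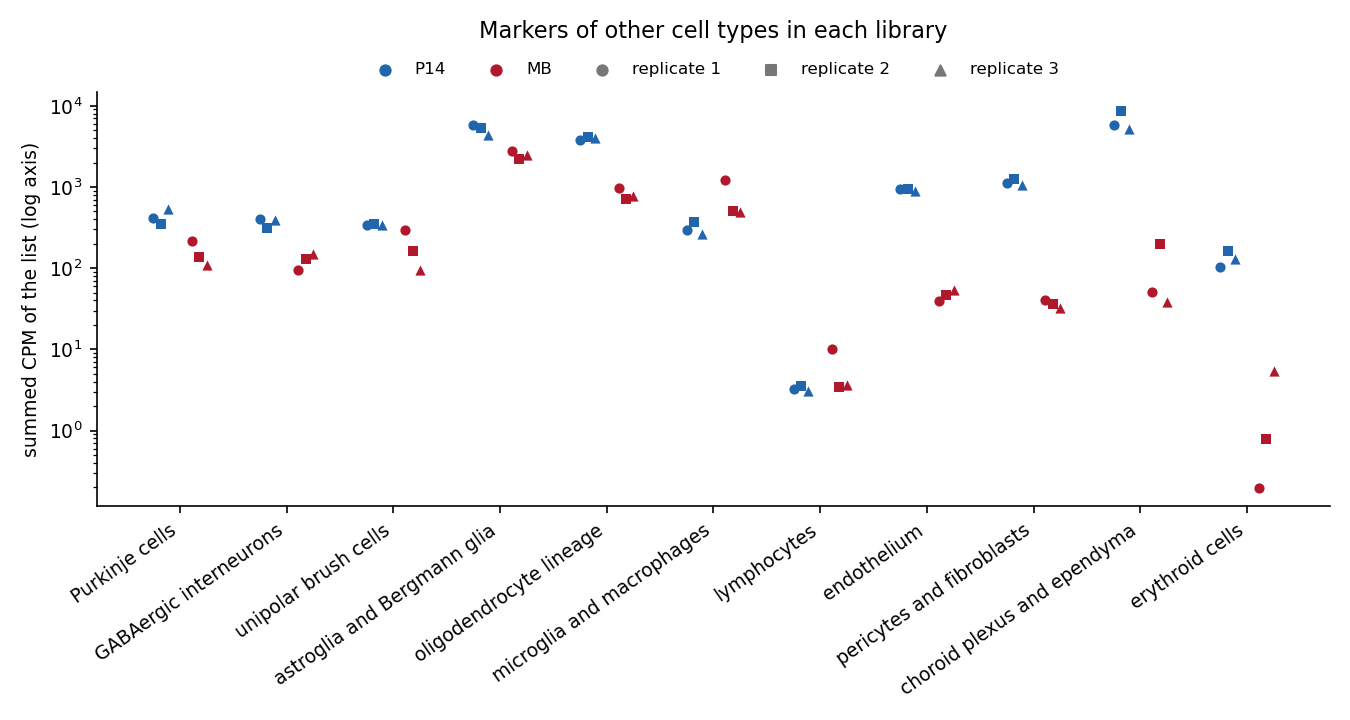
Summed CPM on a log axis of 11 lists of markers of other cell types in the 3 P14 (blue) and 3 MB (red) libraries, with symbols for replicates. Endothelium, pericytes and fibroblasts, choroid plexus and erythroid cells are lower in every tumour by a factor of 10 or more, and microglia and macrophages are the list where every tumour lies above every P14 library.

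Immune genes were the exception in direction. Of 16 markers of microglia and macrophages, 10 were called higher in MB and the other 6 were not called. The share called higher over all autosomal genes tested was 23.2%. The summed level of the markers was 1227, 510 and 487 CPM against 298, 369 and 260 in P14. Without MB replicate 1 the median of the list was 1.11 instead of 1.77. C1qb (1.08 instead of 1.80), C1qc (0.84 instead of 1.15) and Tyrobp (1.19 instead of 1.75) were then no longer called, nor was Ctss. The calls of C1qb, C1qc and Tyrobp were also lost without P14 replicate 1 or 3. Lyz2, the lysozyme of macrophages, was at 349, 121 and 127 CPM against 8.66, 11.2 and 6.92 (4.48, SE 0.50, adjusted p = 4.25e-06; 3.80 without MB replicate 1). Cd74, the invariant chain of antigen presentation, was at 7.22, 51.8 and 60.5 CPM against 4.38, 4.31 and 3.24 (3.32, SE 0.65, adjusted p = 0.000593). Ctss, a macrophage protease, was at 210, 43.5 and 40.6 CPM against 16.2, 25.02 and 15.7 (2.37, SE 0.64; 1.15, adjusted p = 0.067, without MB replicate 1). P2ry12 and Cx3cr1, genes typical of resident microglia, did not share these rises. Other members of the list, among them C1qb, C1qc and Tyrobp, were called higher with every library. Whether the rises came from microglia or from macrophages was not tested. P2ry12 was at 20.5, 3.76 and 3.64 CPM against 22.1, 26.5 and 16.6 and was not called with every library (-1.23, SE 0.66, adjusted p = 0.133), but it was called lower without MB replicate 1 (-2.55, adjusted p = 0.00284). Cx3cr1 was not called at 36.4, 14.5 and 16.1 CPM against 31.1, 28.4 and 22.03 (-0.28, SE 0.40, adjusted p = 0.584). Lymphocyte markers were near the detection limit, with 3 of 10 tested.

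Genes of chromosome 6 were shifted upwards in all 3 tumours, a pattern noticed after the values were seen. Their median log2 fold change was 0.44, which is 0.44 above that of the other autosomes, and 41.2% of the 726 tested genes of chromosome 6 were called higher compared with 22.2% of the 13720 on other autosomes. Relative to all autosomal genes, the median difference of chromosome 6 from the P14 mean was 0.48, 0.35 and 0.37 in the 3 tumours. In the other 12 libraries it lay between -0.09 and 0.02. The shift ran along the chromosome, with medians of 0.34 to 0.55 in 6 consecutive parts of 116 or 117 genes, and it was 0.39 to 0.46 under each of the 15 alternative analyses. Atoh1, Ccnd2, Ezh2, Hk2, Neurod6, Mcm2, Foxm1, Mad2l1 and Cdkn1b lie on this chromosome, and for Cdkn1b the called rise of 0.67 is of similar size to its median; Eno2 and Ntf3, deep falls, lie there too. DNA copy number was not measured, and the part of the chromosome in these differences was not tested.

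**Figure D5:**
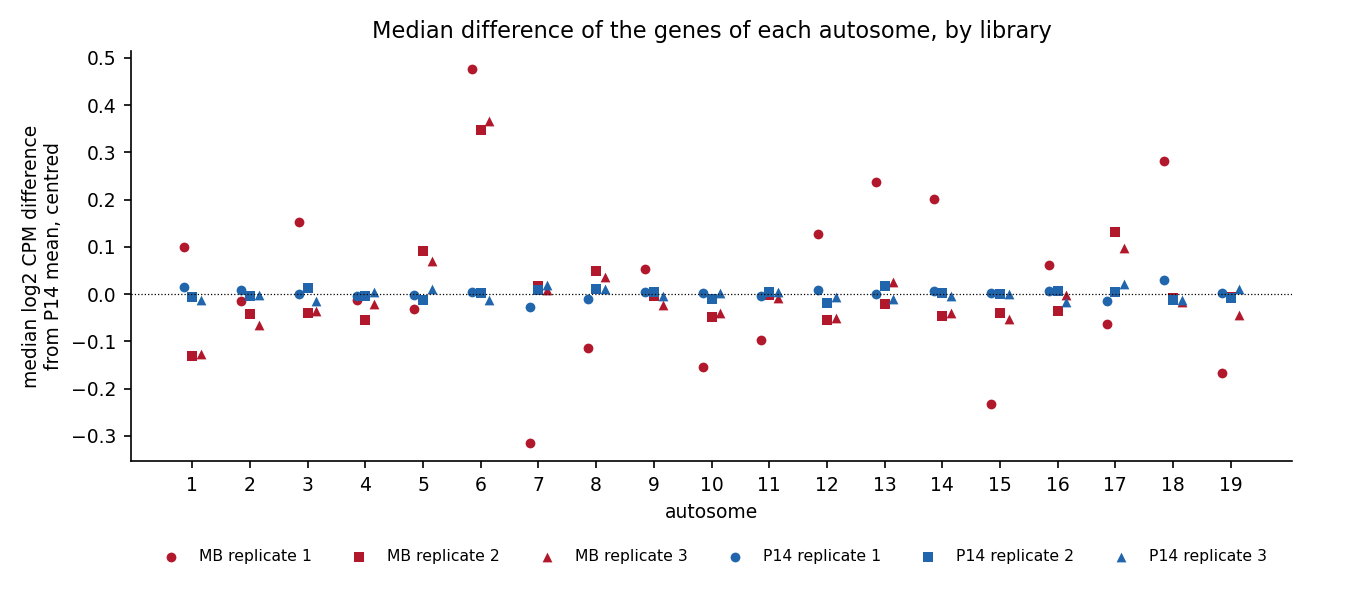
Median difference in log2 CPM from the P14 mean for the tested genes of each autosome (horizontal axis), centred on all autosomal genes of the library, for the 3 MB (red) and 3 P14 (blue) libraries. Chromosome 6 lies at 0.35 to 0.48 in the 3 tumours, and MB replicate 1 also departs from 0 on several other autosomes, from -0.31 on chromosome 7 to 0.28 on chromosome 18.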

How the data were processed

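RNA-seq was done by the submitters on polyA RNA of Percoll-fractionated cells with a TruSeq v2 kit and a HiSeq instrument, per the labels' protocols. The submitters' processing notes name Trimmomatic, TopHat, StringTie, HTSeq and the mm9 build, without roles or versions; the counting setting for strand is not given in the sources used here. The files analysed hold raw gene counts, deposited by the authors, with summary lines for uncounted reads that were removed here. A second deposited table gives counts per transcript, used for one alternative and for mm9 gene positions. Of 21889 gene identifiers, 1531 had no symbol or chromosome in the tables used and were left out. Listed genes not found by symbol (Disp1, Cdkn2d, Mcm4, Pcna, Aurka, Pcgf1, Hoxd4, Mxd4, Ddit4, Hba-a1 and Hba-a2) are not analysed here.

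Counts of all 15 libraries were fitted with edgeR 4.0.16 in R 4.3.3 (quasi-likelihood test, TMM scaling, 1 mean per group, filter at a minimum count of 10 and a total of 15, 10 residual degrees of freedom). P-values were adjusted over all 15259 genes tested, and autosomal genes were counted. The scripts were first tested on simulated counts. SE is the log2 fold change over the square root of F. Alternatives were DESeq2 1.42.0, other scalings, no filter, 6 libraries only, a replicate block, the transcript table, adjustment over autosomal genes, libraries that counted alike, and each replicate left out. The reads carry no molecular identifiers, so the exact intervals and the floor describe counting error alone.

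The comparison, the gene lists and the marker lists were chosen with earlier results of these data known. Named genes were 28 chosen genes, the 10 largest rises and 10 largest falls of at least 5 CPM without overlap, and the 3 largest rises and 3 largest falls of each list. Other list members named in the text were chosen after their values were seen. One gene that this rule names is not reported here.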

Additional observations from a re-analysis of the deposited data

How the results depend on the processing

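Over 15 alternatives, none changed the 4 counts of called genes by more than 1.5 times: genes called higher ranged from 2644 (without P14 replicate 2) to 4594 (libraries that counted alike), and genes called lower from 3537 to 4573. Leaving out single replicates gave 2644 to 3333 higher and 3537 to 4106 lower. Of the 7292 calls, 7225 were kept by DESeq2 and 6122 without P14 replicate 2. Scaling by total counts shifted the median of all genes from 0.01 to -0.10, so fold changes under it read lower by that amount, with 2761 called higher and 4294 lower.

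Of 134 named genes, 128 were called, 117 of them in every alternative, and 0 reversed. Among all 7292 calls, 29 had the other sign with the transcript table and 2 with libraries that counted alike. Without MB replicate 1 this held for 2 calls, and without MB replicate 3 for 1. The median of 13 of 26 lists moved beyond the SD of the tumours in some alternative, and that of the granule lineage factors changed sign with libraries that counted alike.

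With the replicate number as a block, 3101 genes were called higher and 3891 lower, 1565 and 3318 of them at least 2-fold. The deviations of same-numbered MB and P14 libraries correlated at 0.10, 0.04 and 0.14, so the numbers are not taken to pair the samples. Under the block, Eed (0.52) and Hoxb2 were no longer called.

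With 3 libraries a group, 1 tumour that stands apart and no statement of separate animals, the tests describe these libraries. Genes under 1 CPM rest on few reads. Reads with several alignments were not counted, which lowers genes with close copies. The median of the Hox list could not be given with the 6 MB and P14 libraries alone, since none of its genes passed the filter there.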

Other observations

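MB replicate 1 differed from the other tumours in the medians of whole autosomes, measured as log2 CPM differences from the P14 mean and centred on all autosomal genes of the library. Apart from chromosome 6, its medians ran from -0.31 on chromosome 7 to 0.28 on chromosome 18. The corresponding ranges were -0.13 (chromosome 1) to 0.13 (chromosome 17) in MB replicate 2 and -0.13 (chromosome 1) to 0.10 (chromosome 17) in MB replicate 3. In the 3 P14 libraries they stayed between -0.03 and 0.03. These are medians of expression, and DNA was not measured.

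The tumours also differed in single genes that the group comparison averages over. Myc was at 41.3 CPM in MB replicate 1 and at 207 and 165 CPM in replicates 2 and 3, and Sesn2, a stress-induced regulator, at 17.3, 78.4 and 51.7 CPM. In the opposite direction, Tecta, Krt12, Grin2c and Ctss were highest in MB replicate 1.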
